A study of Arabidopsis thaliana with 24 samples.

Results

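The genes examined were 10 auxin-inactivation genes of Arabidopsis thaliana, 8 of the GH3 family and both DAO genes, out of 32833 loci in the deposited tables. They were chosen by name and locus: GH3.1 (AT2G14960), GH3.2 (AT4G37390), GH3.3 (AT2G23170), GH3.4 (AT1G59500), GH3.5 (AT4G27260), GH3.6 (AT5G54510), GH3.9 (AT2G47750), GH3.17 (AT1G28130), DAO1 (AT1G14130) and DAO2 (AT1G14120). Their sense-strand read counts were followed through 24 root libraries in 8 groups of 3. The groups crossed the wild type Col-0 or the line UB10pro_amiR-TOR (here amiR-TOR, an artificial microRNA against the kinase gene TOR that estradiol switches on, behind the UB10 promoter) with NPA or IAA and with estradiol or its solvent DMSO. According to its title, the series concerns the induction of lateral roots, in wild-type plants and with TOR knocked down.

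All seedlings were 7 d old when they went onto 10 µM NPA, an inhibitor of auxin transport, for 24 h, so every group carried this pretreatment. They then had a further 24 h on NPA with 10 µM estradiol or solvent. The NPA groups stayed on those plates, whereas the IAA groups moved to 10 µM IAA, the natural auxin, again with estradiol or solvent, and all were collected after another 6 h. NPA is not named for the IAA plates, so a difference between IAA and NPA groups covers both the added IAA and the end of NPA treatment. Each library pooled about 200 segments from the lower part of seedling roots, and the labels do not say whether replicates were separate cultures or days. The p-values below therefore measure only the spread between these libraries. The labels do not say how many transformants stand behind amiR-TOR.

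Auxin acts through its concentration, and plants lower that concentration by several routes. GH3 enzymes of the group studied here join IAA to amino acids, which gives storage forms or forms on the way to breakdown, and many GH3 genes are themselves switched on by auxin. DAO enzymes are dioxygenases that oxidise auxin to oxIAA, and both routes together help to set the auxin level in roots, where auxin starts lateral roots.

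Auxin switches genes on through response factors that bind short elements in front of genes, of which TGTCTC is the canonical one and TGTCGG a variant with strong binding, with a core of 4 letters in common. The 250 bases before the annotated start of each gene were therefore searched on both strands for either element and for TGTCNN, the core with any pair of bases after it, which includes both. The windows come from the RefSeq annotation of TAIR10.1, matched by locus. They are given here for GH3.1, GH3.2, GH3.3 and GH3.5, the strongest responders in Col-0 without estradiol. In amiR-TOR with estradiol GH3.6, whose window is not printed, rose more than GH3.2. Also given are a GH3 gene that hardly responded (GH3.17) and the member with the largest fall (DAO2). Each TGTCNN match on either strand is in capitals (on the opposite strand it reads NNGACA). The windows lie at chr2:6453798-6454047 (minus strand), chr4:17579368-17579617 (plus strand), chr2:9866563-9866812 (minus strand), chr4:13653329-13653578 (plus strand), chr1:9824919-9825168 (plus strand) and chr1:4835090-4835339 (minus strand), and are written 5′ to 3′ along the gene.
GH3.1: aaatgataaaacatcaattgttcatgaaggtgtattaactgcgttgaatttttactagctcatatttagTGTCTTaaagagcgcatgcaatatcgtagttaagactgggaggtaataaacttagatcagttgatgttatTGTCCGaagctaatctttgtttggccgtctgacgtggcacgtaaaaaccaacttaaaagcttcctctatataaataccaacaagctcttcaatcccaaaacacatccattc
GH3.2: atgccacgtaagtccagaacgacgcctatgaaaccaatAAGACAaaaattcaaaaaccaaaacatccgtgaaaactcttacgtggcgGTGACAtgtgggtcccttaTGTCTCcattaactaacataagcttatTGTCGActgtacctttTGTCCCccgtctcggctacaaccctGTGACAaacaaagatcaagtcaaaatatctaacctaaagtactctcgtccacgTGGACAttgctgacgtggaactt
GH3.3: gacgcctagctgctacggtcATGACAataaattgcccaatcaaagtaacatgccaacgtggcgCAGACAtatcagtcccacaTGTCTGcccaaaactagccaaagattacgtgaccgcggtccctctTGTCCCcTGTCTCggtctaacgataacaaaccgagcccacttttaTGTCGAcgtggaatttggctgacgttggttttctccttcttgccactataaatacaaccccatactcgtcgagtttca
GH3.5: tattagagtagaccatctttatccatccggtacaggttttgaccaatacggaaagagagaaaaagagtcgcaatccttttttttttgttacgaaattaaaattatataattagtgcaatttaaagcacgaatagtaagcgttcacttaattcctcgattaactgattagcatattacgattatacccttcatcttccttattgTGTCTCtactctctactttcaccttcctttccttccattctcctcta
GH3.17: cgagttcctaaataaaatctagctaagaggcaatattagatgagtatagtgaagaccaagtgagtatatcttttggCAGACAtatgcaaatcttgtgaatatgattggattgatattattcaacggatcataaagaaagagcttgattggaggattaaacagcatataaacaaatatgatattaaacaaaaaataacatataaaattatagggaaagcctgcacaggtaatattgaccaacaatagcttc
DAO2: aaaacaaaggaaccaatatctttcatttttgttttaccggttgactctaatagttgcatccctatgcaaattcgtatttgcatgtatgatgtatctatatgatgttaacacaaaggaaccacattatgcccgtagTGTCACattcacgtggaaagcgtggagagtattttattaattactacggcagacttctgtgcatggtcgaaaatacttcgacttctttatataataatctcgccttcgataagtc

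GH3.2 had 7 TGTCNN matches in its window and GH3.3 had 6, against a median of 1 (interquartile range 0 to 2) over 27443 windows of the same length. GH3.9 had 3, GH3.1 had 2, GH3.5, GH3.6, GH3.17, DAO1 and DAO2 had 1 each, and GH3.4 had 0. The full TGTCTC stood once each before GH3.2, GH3.3 and GH3.5 and in none of the other 7 windows, and 10.9% of all windows held it. TGTCGG was in none of the 10 windows and in 4.16% of all windows, and 74.5% of all windows held at least 1 TGTCNN. A match is only a description of these letters. GH3.1 and GH3.6, which rose on IAA as described below, held no TGTCTC in this window.

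**Figure D1:**
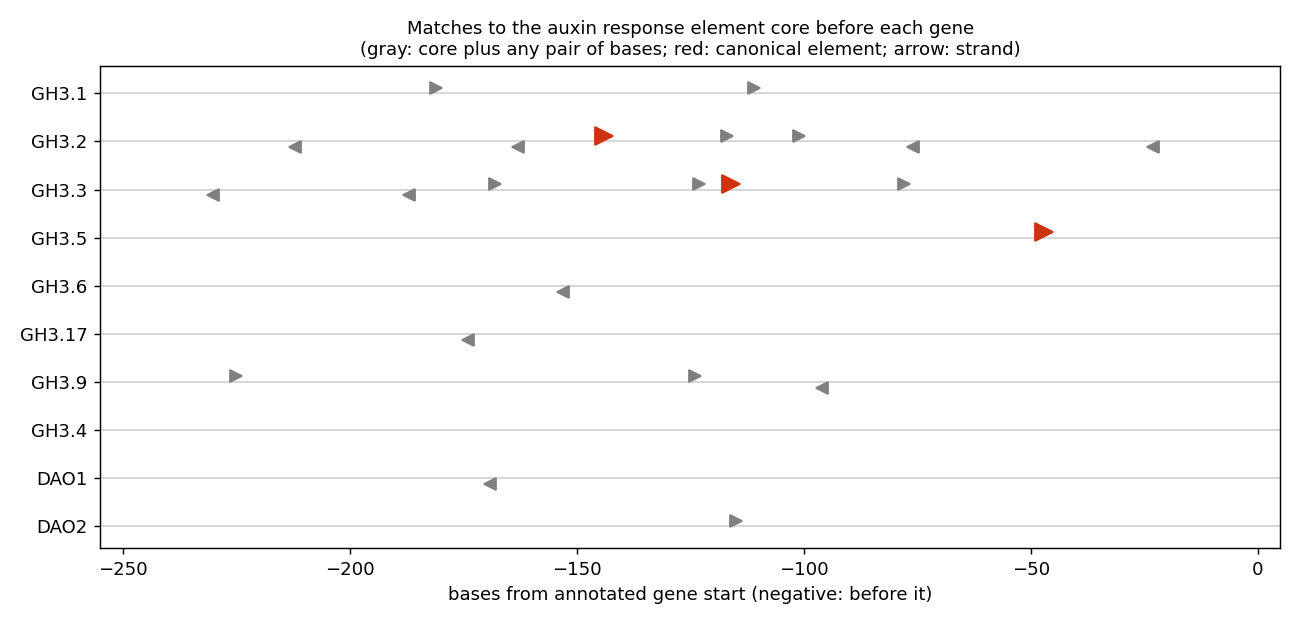
Positions of matches in the 250 bases before each gene, in bases from the annotated start (x axis), for the 10 genes (rows); gray arrows are TGTCNN matches, red arrows TGTCTC matches, and the arrow gives the strand. GH3.2 and GH3.3 hold the densest rows, with 7 and 6 matches, and red arrows stand only on the rows of GH3.2, GH3.3 and GH3.5.

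The genes fall into groups of close relatives. Over aligned coding sequence GH3.2 and GH3.4 were 90.0% identical, GH3.5 and GH3.6 84.1%, GH3.2 and GH3.3 79.8%, and GH3.3 and GH3.4 77.7%. By contrast, GH3.9 shared at most 61.2% and GH3.17 at most 61.3% with any other GH3 member. DAO1 and DAO2 were 81.3% identical and are neighbours on chromosome 1 and on the same strand, DAO2 at positions 4833396 to 4835089 and DAO1 at 4835724 to 4837771 (TAIR10.1). Reads that map to more than 1 place were not counted, so the level of GH3.4 beside GH3.2 is uncertain. The gene of GH3.9 overlaps another locus, AT2G09955, on the opposite strand, and the sense counts used here separate them only as far as the library strand does.

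The libraries held between 8589833 and 40494513 sense gene counts, with a median of 21340901. TOR itself was examined first as a check of the labels: it had 46.8 to 80.2 CPM (reads of a gene relative to the scaled size of its library) in the 12 Col-0 libraries, 52.3 to 70.1 CPM in the 6 amiR-TOR libraries without estradiol and 21.9 to 33.3 CPM in the 6 with estradiol, which is the pattern the labels call for. In 5 libraries 25.8% to 47.6% of reads were unmapped (replicate 1 of the Col-0 NPA and IAA groups without estradiol, replicates 2 and 3 of Col-0 on IAA plus estradiol, and replicate 1 of amiR-TOR on IAA plus estradiol), against 1.56% to 12.05% in the other 19. Replicate 2 of amiR-TOR on NPA with estradiol stood apart from replicates 1 and 3 of its group for several members. Values without it are given where leaving it out changed a member's call. Other values of that group include it, or are ranges over fits that each left out 1 library. Within that group replicate 2 had the lowest TOR (21.9 CPM, against 33.3 and 25.8 CPM), and its share of unmapped reads was 4.68%. All 7 root markers (PYK10, COBL9, RHD6, SCR, SHR, WOX5, WER) had counts in every library. Their summed level differed between groups, with 19306 to 21300 CPM in Col-0 on NPA, 14006 to 16448 CPM there with estradiol and 17602 to 18152 CPM in amiR-TOR on NPA, but 7648 to 10314 CPM in amiR-TOR on NPA with estradiol and 6698 to 10548 CPM in the 4 IAA groups. That sum was almost all PYK10 (20241 of 20314 CPM as means in Col-0 on NPA), and the other markers did not follow it: on IAA in Col-0 without estradiol PYK10, COBL9, WER and RHD6 fell, WOX5 rose (log2 2.46 ± 0.284 SE) and SCR and SHR were not called. With estradiol in Col-0 on NPA PYK10 was lower, RHD6 and WER were higher, and the other 4 were not called. The 7 leaf markers summed to 25.2 to 276 CPM in all libraries, highest in Col-0 on NPA, and RBCS2B was at 0 in some libraries of 6 groups. In bulk roots fewer cells of a type and less RNA per cell cannot be told apart, and the part of these marker shifts in the results below was not tested.

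Of the 10 genes 9 passed the filter on low counts; GH3.4 did not. A gene is called when its adjusted p in a comparison, from edgeR's quasi-likelihood test with Benjamini-Hochberg adjustment over all 21290 tested loci, was under 0.05. All adjusted p-values below come from that test unless another is named.

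On IAA the amido synthetase genes GH3.1, GH3.2, GH3.3, GH3.5 and GH3.6 rose many fold in both genotypes with and without estradiol, while DAO2 fell in all 4 comparisons. Of the 9 tested members 8 passed the test in Col-0 without estradiol, 5 of them higher and 3 lower (6 to 7 called when 1 library was left out, through GH3.17 and DAO1), where 63.3% of all tested loci were called (31.3% higher and 32.0% lower). With estradiol Col-0 again had 8 called, 5 higher and 3 lower, against 59.3% of all loci (29.9% higher and 29.3% lower). In amiR-TOR 8 were called without estradiol, 6 higher and 2 lower, against 52.8% of loci (29.3% higher and 23.5% lower), and 8 with estradiol, 7 higher and 1 lower, against 39.2% (20.6% higher and 18.6% lower). The members' median log2 fold change was 4.51, 4.77, 4.13 and 3.85 in these 4 comparisons, against -0.04, -0.02, 0.02 and 0.01 over all tested loci.

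GH3.3, whose enzyme conjugates IAA to amino acids, reached the highest level per length of the family on IAA. In Col-0 it had 12.98, 14.999 and 13.2 CPM on NPA and 2008, 2963 and 2253 CPM on IAA, a 175-fold rise (log2 7.45 ± 0.499 SE, adjusted p = 2.06e-10). With estradiol it had 12.4, 9.72 and 11.5 CPM on NPA and 2672, 2354 and 2163 CPM on IAA (log2 7.74 ± 0.505). Groups on NPA and IAA were thus far apart in Col-0. In amiR-TOR it had 54.9, 49.3 and 35.3 CPM on NPA and 2754, 3241 and 2498 CPM on IAA (log2 5.93 ± 0.463, 60.9-fold). With estradiol it had 72.9, 10.9 and 52.0 CPM on NPA and 2666, 2819 and 2477 CPM on IAA (log2 5.88 ± 0.461). Fits that each left out 1 library gave 5.41 to 6.40 there. The IAA levels of the 2 genotypes overlapped. The NPA levels lay apart without estradiol, whereas with estradiol replicate 2 of amiR-TOR (10.9 CPM) lay within the Col-0 range.

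GH3.2, another IAA amido synthetase gene, followed GH3.3. In Col-0 it had 32.4, 47.4 and 47.2 CPM on NPA and 1839.8, 2692 and 2122 CPM on IAA, a 52.4-fold rise (log2 5.71 ± 0.390 SE, adjusted p = 1.59e-10). With estradiol it had 26.7, 31.1 and 31.4 CPM on NPA and 2533, 2345 and 1950.1 CPM on IAA (log2 6.26 ± 0.400). In amiR-TOR the values on NPA were 134, 107 and 83.7 CPM and those on IAA 2371, 2759.5 and 2255 CPM (log2 4.51 ± 0.368, 22.7-fold). Every IAA library of GH3.2 lay above every NPA library. With estradiol amiR-TOR had 235, 63.1 and 254 CPM on NPA and 2829, 2654.8 and 2455 CPM on IAA (log2 3.85 ± 0.356, 14.4-fold).

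GH3.1 had the lowest starting level of the 5 responders and the largest fold rise in Col-0 without estradiol. It had 2.52, 2.69 and 1.76 CPM on NPA and 369.8, 548 and 463 CPM on IAA in Col-0, a 195-fold rise (log2 7.61 ± 0.202 SE, adjusted p = 1.63e-18). In Col-0 with estradiol it had 4.74, 3.27 and 3.21 CPM on NPA and 506, 418 and 393 CPM on IAA (log2 6.90 ± 0.192, 119-fold). Its NPA levels thus lay higher with estradiol in every library, and its IAA levels overlapped. In amiR-TOR it had 1.60, 2.097 and 2.31 CPM on NPA and 424, 444 and 418 CPM on IAA (log2 7.72 ± 0.205). With estradiol it had 3.45, 4.24 and 4.32 CPM on NPA and 408, 405 and 373 CPM on IAA (log2 6.62 ± 0.190, 98.2-fold).

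GH3.5 and GH3.6, close relatives that both act on IAA, rose with the steadiest fold of the 5. GH3.5 had 31.9, 37.0 and 45.7 CPM on NPA and 1378, 1686 and 1659.7 CPM on IAA in Col-0, a 41.2-fold rise (log2 5.37 ± 0.195 SE, adjusted p = 3.69e-16). In the other 3 comparisons its log2 change was 5.30, 5.40 and 5.57. Over all 24 libraries it lay between 21.7 and 45.7 CPM on NPA and between 1274 and 1850.3 CPM on IAA. GH3.6 had 21.6, 24.1 and 28.9 CPM on NPA and 502, 622 and 578 CPM on IAA in Col-0, a 22.8-fold rise (log2 4.51 ± 0.161, adjusted p = 2.93e-16). Its log2 change was 4.77 in Col-0 with estradiol, 4.13 in amiR-TOR and 4.70 in amiR-TOR with estradiol. The 12 NPA and 12 IAA libraries of each gene did not overlap, with 13.99 to 33.7 CPM and 470.3 to 654 CPM for GH3.6.

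GH3.4, the closest relative of GH3.2, was at 0 counts in all 12 NPA libraries, where 3 counts would be the limit a count of 0 allows. On IAA it had 0, 0 and 2 counts in Col-0, 1, 6 and 0 with estradiol, 2, 1 and 5 in amiR-TOR and 1, 5 and 6 in amiR-TOR with estradiol. Thus 9 of the 12 IAA libraries held at least 1 count and 4 held more than 3. No fold is given at such levels, and GH3.4 was not tested.

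GH3.17, whose enzyme joins IAA to glutamate, stood at a steady high level and moved in opposite directions in the 2 genotypes. In Col-0 it had 105, 123 and 114 CPM on NPA and 88.7, 98.2 and 99.4 CPM on IAA (log2 -0.25 ± 0.109 SE, adjusted p = 0.0465). With estradiol Col-0 had 91.6, 102 and 98.4 CPM on NPA and 87.9, 67.6 and 71.6 CPM on IAA (log2 -0.36 ± 0.109, adjusted p = 0.00694). In amiR-TOR it had 78.0, 76.9 and 75.3 CPM on NPA and 107, 121 and 104 CPM on IAA, a 1.44-fold rise (log2 0.52 ± 0.110, adjusted p = 0.000338). With estradiol amiR-TOR had 67.5, 86.6 and 72.5 CPM on NPA and 122, 100.5 and 122 CPM on IAA (log2 0.60 ± 0.109, adjusted p = 0.000111). In each of these comparisons the NPA and IAA libraries did not overlap. The difference between the responses of the genotypes without estradiol, tested as an interaction, was 0.78 ± 0.155 (adjusted p = 0.0118), and GH3.17 was the 1 member called in it, against 2.98% of all tested loci. The small fall in Col-0 without estradiol lost its call in 5 of 6 fits that omitted a library each (adjusted p up to 0.169, without replicate 2 of Col-0 on NPA), with the filter off (0.0592), with the replicate block (0.0568) and with only the groups compared (0.110). The interaction kept its call in every alternative run, with values between 0.68 and 0.83.

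GH3.9, a relative known for a part in root growth, was near the limit of detection, with 1 to 34 counts a library and 0.0612 to 1.36 CPM. It was called on IAA in 1 of the 4 comparisons, amiR-TOR with estradiol, where it had 0.388, 0.324 and 0.353 CPM on NPA and 1.36, 0.864 and 0.981 CPM on IAA (log2 1.58 ± 0.453 SE, adjusted p = 0.00754). In the other 3 comparisons its log2 change was -0.82, -0.27 and -0.04, none called and all within 2 SE of 0, and that it differed between the comparisons is not shown by these calls (auxin by estradiol interaction within amiR-TOR 1.62 ± 0.764, adjusted p = 0.203).

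DAO2, the DAO1 neighbour and relative in the oxidation route, fell in all 4 comparisons. In Col-0 it had 432, 378 and 319 CPM on NPA and 62.8, 69.1 and 51.0 CPM on IAA, 6.19-fold lower (log2 -2.63 ± 0.217 SE, adjusted p = 8.89e-10). With estradiol it had 285, 288 and 314 CPM on NPA and 61.9, 54.0 and 54.5 CPM on IAA (log2 -2.38 ± 0.215). The Col-0 NPA libraries all lay above the IAA libraries by several fold. In amiR-TOR it had 223, 236 and 229 CPM on NPA and 46.4, 53.2 and 49.3 CPM on IAA (log2 -2.21 ± 0.215). With estradiol amiR-TOR had 127, 67.0 and 159 CPM on NPA and 45.6, 48.0 and 31.9 CPM on IAA (log2 -1.49 ± 0.209, 2.81-fold lower). Fits that each left out 1 library gave -1.775 to -1.216 there.

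DAO1, which encodes the main auxin dioxygenase of seedlings, changed far less. In Col-0 it had 63.3, 63.1 and 55.0 CPM on NPA and 48.1, 53.6 and 41.2 CPM on IAA (log2 -0.35 ± 0.141 SE, adjusted p = 0.0353). With estradiol it had 53.8, 61.6 and 57.7 CPM on NPA and 46.5, 41.1 and 38.1 CPM on IAA (log2 -0.46 ± 0.141, adjusted p = 0.00725). In amiR-TOR it had 62.5, 65.1 and 57.0 CPM on NPA and 47.6, 48.4 and 50.2 CPM on IAA (log2 -0.34 ± 0.142, adjusted p = 0.0490). In these 3 comparisons every NPA library lay above every IAA library. With estradiol amiR-TOR had 48.8, 33.9 and 51.5 CPM on NPA and 43.0, 46.8 and 31.9 CPM on IAA, which overlapped (log2 -0.14 ± 0.140, adjusted p = 0.458). The calls without estradiol were weak: in Col-0 4 of 6 fits that each left out 1 library lost the call (adjusted p up to 0.175, without replicate 3 on IAA), and in amiR-TOR 5 of 6 did (up to 0.144, without replicate 2 on NPA), as did the replicate block (0.0524) and the covariate for libraries of high unmapped share (0.0508).

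**Figure D2:**
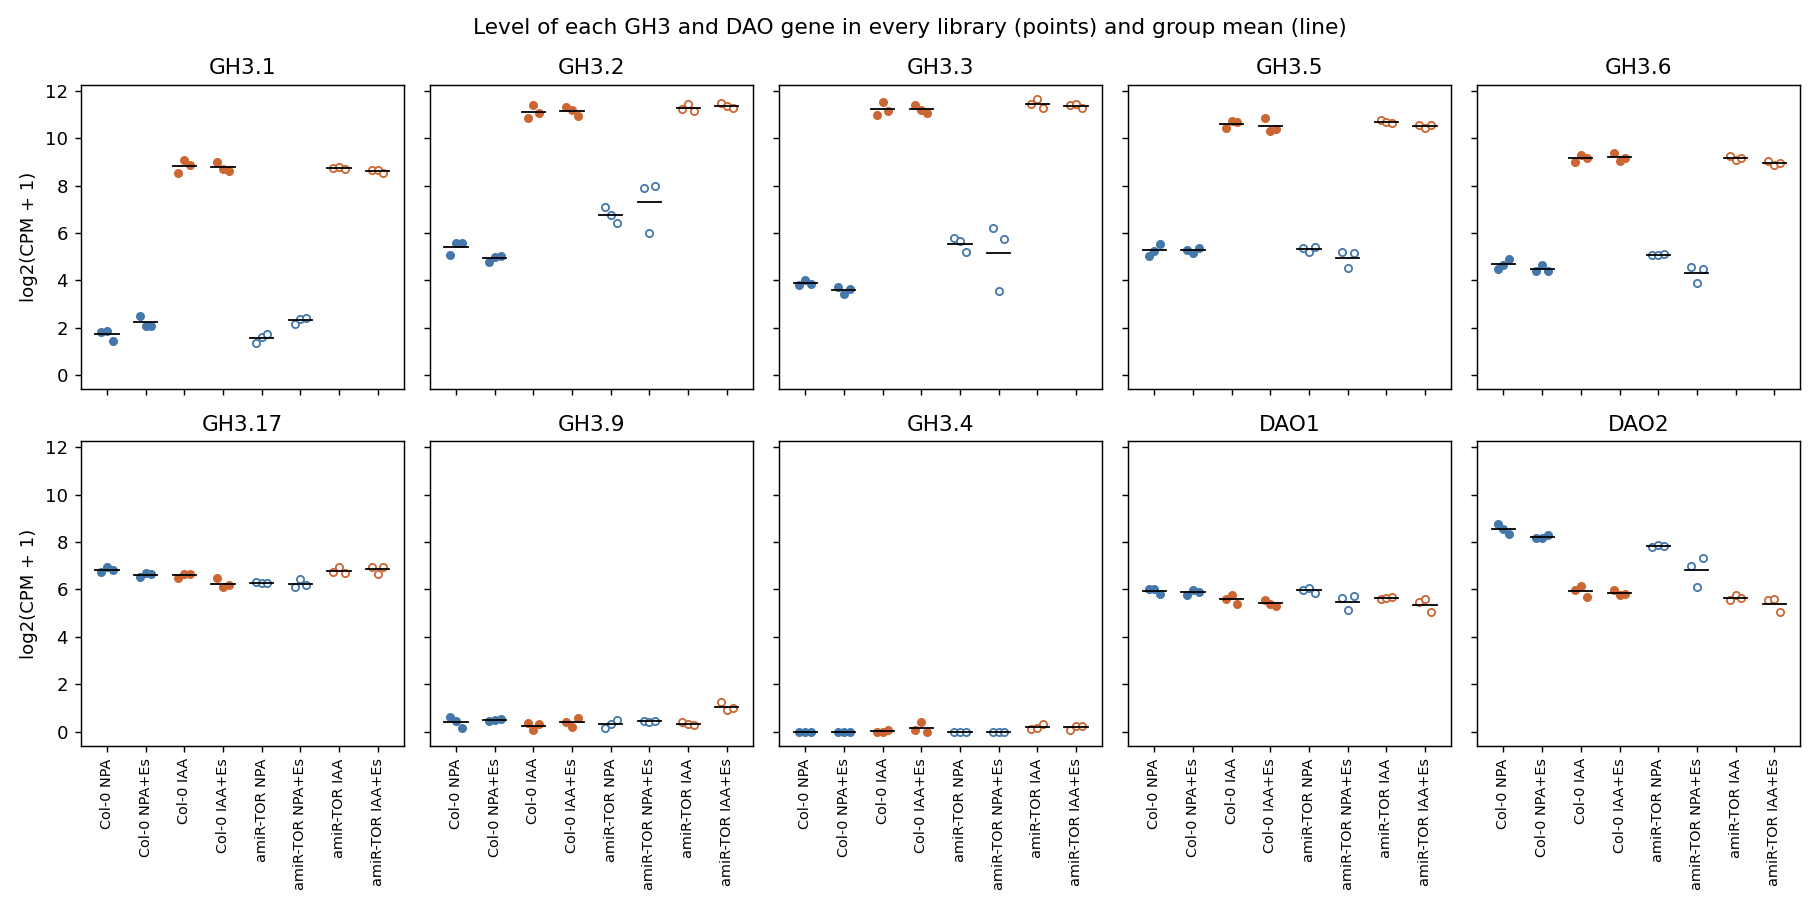
Level of each gene as log2(CPM + 1) (y axis) in each of the 24 libraries (points) of the 8 groups (x axis), with the group mean as a line; blue is NPA, orange IAA, filled Col-0, open amiR-TOR, and Es is estradiol. GH3.1, GH3.2, GH3.3, GH3.5 and GH3.6 are high in all 12 IAA libraries, DAO2 is lower there, and the open blue points at NPA+Es of GH3.2 and GH3.3 hold 1 low library, replicate 2 of amiR-TOR on NPA with estradiol (63.1 and 10.9 CPM).

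**Figure D3:**
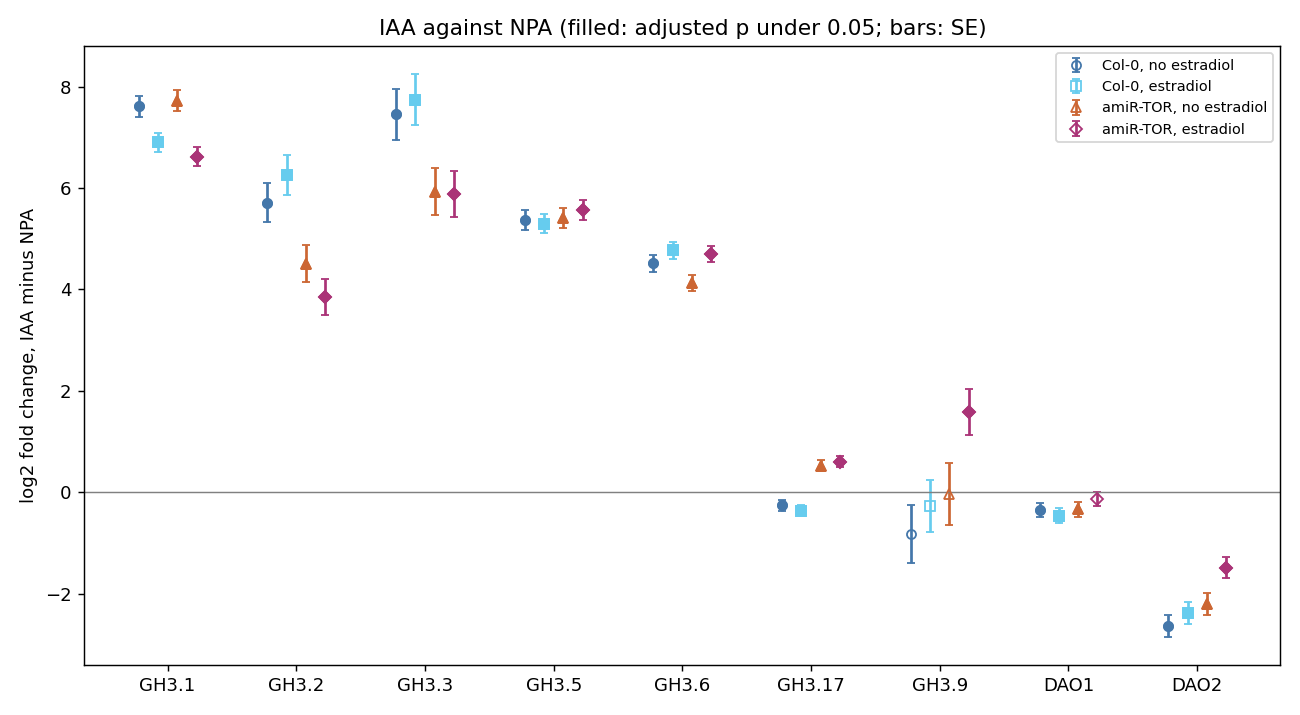
Log2 fold change of IAA minus NPA (y axis) with its SE (bars) for the 9 tested genes (x axis), in Col-0 and amiR-TOR without and with estradiol (4 colours and shapes; filled where the adjusted p is under 0.05). The 5 responding GH3 genes lie between 3.85 and 7.74, GH3.17 lies below 0 in Col-0 (-0.25 and -0.36) and above it in amiR-TOR (0.52 and 0.60), and DAO2 lies between -2.63 and -1.49.

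In 3 of the 4 NPA groups the summed DAO level was above the summed GH3 level, and in amiR-TOR on NPA with estradiol and in all 4 IAA groups it was below. Levels between genes were compared as CPM per kb of exon. In Col-0 on NPA DAO2 led with 287 ± 43.2 CPM per kb (SD, n = 3). GH3.17 (41.6 ± 3.21) and DAO1 (38.9 ± 3.03) came next and overlapped, then GH3.2 (19.5 ± 3.95) and GH3.5 (16.2 ± 2.96), which overlapped too. GH3.6, GH3.3, GH3.1 and GH3.9 followed at 10.7, 6.49, 1.04 and 0.118 CPM per kb without overlap between neighbours, and GH3.4 was at 0.

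In Col-0 on IAA GH3.3 (1137 ± 234 CPM per kb) and GH3.2 (1022 ± 200) led and overlapped. GH3.5 followed at 668 ± 72.4, then GH3.6 (245 ± 26.1) and GH3.1 (205 ± 39.8), which overlapped. DAO2 came at 46.5 ± 6.98, then GH3.17 (34.9 ± 2.14) and DAO1 (30.6 ± 3.98), which overlapped. In amiR-TOR on NPA the order again began with DAO2 (175 ± 5.14), but GH3.2 came next at 49.9 ± 11.7 and overlapped DAO1 at 39.6 ± 2.65.

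The summed GH3 level rose from 83.7, 101 and 102 CPM per kb on NPA to 2795, 3904 and 3238 on IAA in Col-0. The summed DAO level went from 370.2, 329 and 278 to 78.8, 87.1 and 65.4 CPM per kb. The ratio of the summed GH3 to the summed DAO level averaged 0.300 on NPA (0.226 to 0.367) and 43.3 on IAA (35.5 to 49.5) in Col-0. With estradiol Col-0 had 0.311 and 46.7. In amiR-TOR it averaged 0.615 on NPA (0.550 to 0.707) and 52.9 on IAA, and with estradiol 1.30 (1.14 to 1.51) and 62.3. The 3 amiR-TOR libraries on NPA without estradiol lay above the 6 Col-0 libraries on NPA in this ratio, and those with estradiol lay higher still. The share of DAO2 in the summed level of the 10 genes was 67.8% ± 4.42 (SD, n = 3) in Col-0 on NPA, 50.6% ± 2.99 in amiR-TOR on NPA, 32.5% ± 2.36 in amiR-TOR on NPA with estradiol, and 0.887% to 1.39% as group means on IAA. Shares, sums and ratios were not tested; they are sums of transcripts and not of enzyme activity.

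**Figure D4:**
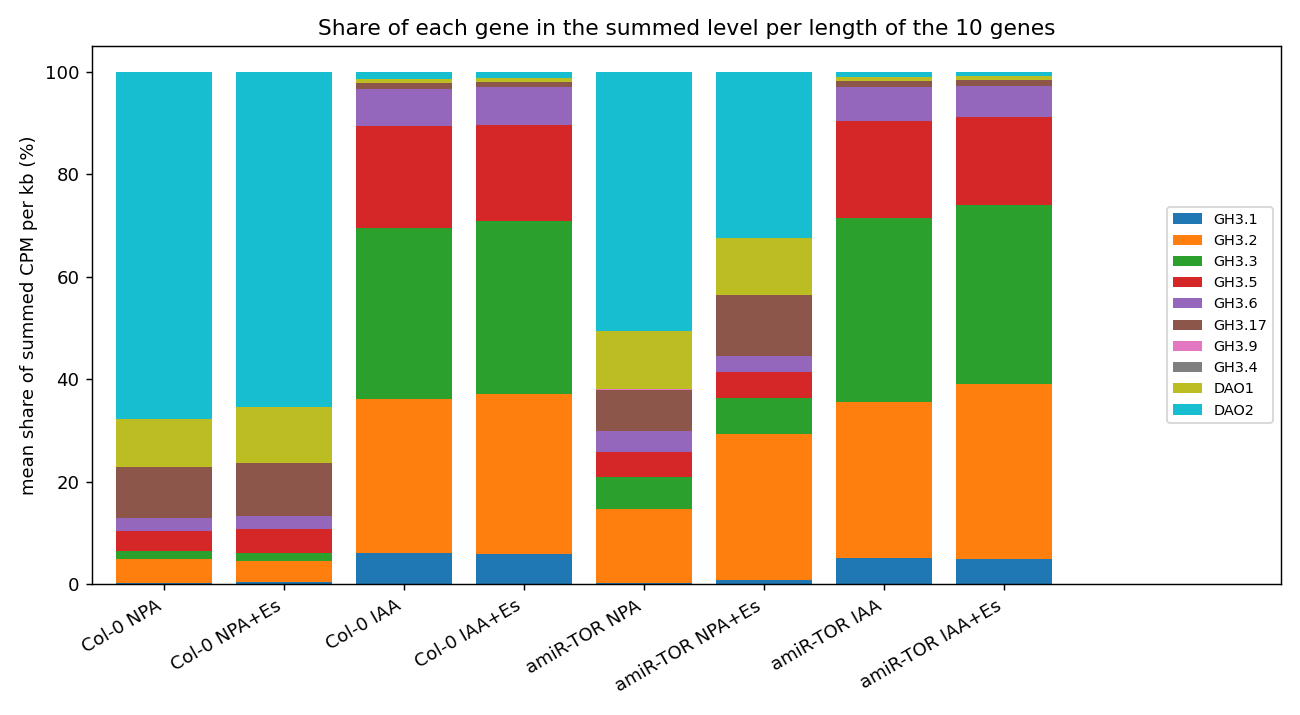
Mean share (y axis, percent) of each of the 10 genes in their summed CPM per kb, for the 8 groups (x axis). DAO2 takes 67.8% in Col-0 on NPA and 32.5% in amiR-TOR on NPA with estradiol, and GH3.2 and GH3.3 together take most of each bar on IAA.

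On NPA without estradiol the uninduced amiR-TOR line already differed from Col-0 in GH3.2, GH3.3, GH3.17, GH3.6 and DAO2, which is 5 of the 9 tested members, against 22.1% of all tested loci. GH3.3 was 3.38-fold higher in amiR-TOR (log2 1.76 ± 0.401 SE, adjusted p = 0.00487), with 35.3 to 54.9 CPM against 12.98 to 14.999 CPM. GH3.2 was 2.56-fold higher (log2 1.35 ± 0.328, adjusted p = 0.00685), with 83.7 to 134 CPM against 32.4 to 47.4 CPM. GH3.6 was 1.32-fold higher (log2 0.40 ± 0.144, adjusted p = 0.0471). GH3.17 was 1.48-fold lower (log2 -0.57 ± 0.110, adjusted p = 0.00100), with 75.3 to 78.0 CPM against 105 to 123 CPM. DAO2 was 1.64-fold lower (log2 -0.72 ± 0.204, adjusted p = 0.0161), with 223 to 236 CPM against 319 to 432 CPM. The 2 genotypes did not overlap in any of these 5 genes, which were already picked by their calls. How many of all tested loci lay apart in the same way was not counted. TOR itself was not called there. The count was 3 without replicate 1 of Col-0 on NPA or without replicate 1 of amiR-TOR on NPA, each of which ended the calls of GH3.6 and DAO2 (adjusted p = 0.0605 and 0.0534 for DAO2). The call of GH3.6 was lost in 5 of those 6 fits, with RLE size factors (0.0544), with the replicate block (0.0548) and with the covariate for libraries of high unmapped share (0.0646). Root markers also lay apart between these groups: PYK10 was lower in amiR-TOR, and COBL9 (18.4 to 19.4 against 10.9 to 13.5 CPM), RHD6 and WER were higher. SCR, SHR and WOX5 overlapped. All leaf markers but RBCS1A were lower in amiR-TOR without overlap. The part of these shifts in the member differences was not tested.

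On IAA without estradiol no member was called between the genotypes by edgeR's quasi-likelihood test, and 0 had an unadjusted p under 0.05, against 12.6% of all loci called. Log2 differences lay between -0.30 ± 0.209 SE (DAO2) and 0.42 ± 0.639 (GH3.9), and those of GH3.2 and GH3.3 were 0.15 ± 0.317 and 0.23 ± 0.372. Thus the differences of 1.35 and 1.76 for GH3.2 and GH3.3 on NPA had no called counterpart on IAA. Tested as an interaction of genotype with auxin, GH3.2 gave -1.20 ± 0.454 (adjusted p = 0.145) and GH3.3 -1.52 ± 0.544 (adjusted p = 0.128), neither called. When only the 4 groups compared were fitted they were -1.31 (adjusted p = 0.0243) and -1.62 (0.00630), both called, so whether the difference depends on IAA rests on the fit.

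Estradiol was also compared with solvent in Col-0. On NPA the libraries with and without estradiol did not overlap for 5 of the 9 tested members. How many of all tested loci lay apart in the same way was not counted. There 1 of the 9 members was called, against 21.7% of all loci: GH3.1 rose 1.56-fold (log2 0.64 ± 0.194 SE, adjusted p = 0.0210). Its call was lost without replicate 1 of Col-0 on NPA plus estradiol (log2 0.46, adjusted p = 0.113), without replicate 3 of Col-0 on NPA (0.49, 0.130) and with only the groups compared (0.0972). GH3.2 was 0.51 lower with estradiol (log2 -0.51 ± 0.327, adjusted p = 0.285), called when only the groups compared were fitted (adjusted p = 0.0374). On IAA 0 members were called by edgeR, 1 had an unadjusted p under 0.05, and 1.02% of all loci were called. That member was GH3.17 (log2 -0.33 ± 0.110, adjusted p = 0.165), which was called without replicate 1 of Col-0 on IAA plus estradiol (log2 -0.46, adjusted p = 0.0248).

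In amiR-TOR, where estradiol also lowers TOR, 4 members were called on NPA, 1 higher and 3 lower, against 33.0% of all loci. The direct test of genotype by estradiol on NPA called 0 members, against 2.62% of loci. A larger estradiol effect in amiR-TOR than in Col-0 is thus not shown by these counts. GH3.1 rose 1.98-fold (log2 0.99 ± 0.200 SE, adjusted p = 0.000661). GH3.6 fell 1.72-fold (log2 -0.78 ± 0.145, adjusted p = 0.000321), from 32.3 to 33.7 CPM to 13.99 to 22.6 CPM. DAO2 fell 1.95-fold (log2 -0.96 ± 0.205, adjusted p = 0.00119), a call lost with only the groups compared (adjusted p = 0.05004). Its log2 change lay between -1.24 and -0.68 over fits that each left out 1 library. DAO1 fell 1.38-fold (log2 -0.46 ± 0.140, adjusted p = 0.0144), a call lost without replicate 2 of amiR-TOR on NPA with estradiol (log2 -0.29, adjusted p = 0.124) and without replicate 2 of amiR-TOR on NPA (0.0616). Of the 7 root markers in these groups PYK10 was lower with estradiol (log2 -0.97 ± 0.135), RHD6 (0.74 ± 0.162), SHR (0.72 ± 0.138) and SCR (0.56 ± 0.161) were higher, and WER, WOX5 and COBL9 were not called. Their sum, almost all PYK10, went from 17602 to 18152 CPM without to 7648 to 10314 CPM with estradiol, and the part of these shifts in the lower DAO1, DAO2 and GH3.6 levels was not tested.

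GH3.2 in the same groups rested on 1 library. It had 134, 107 and 83.7 CPM without and 235, 63.1 and 254 CPM with estradiol (log2 0.76 ± 0.322 SE, adjusted p = 0.0751). Without replicate 2 of amiR-TOR on NPA with estradiol its log2 change was 1.18 (adjusted p = 0.000140), and the DESeq2 Wald test called it with all libraries (0.76, adjusted p = 0.0345). The same library had the lowest GH3.3, GH3.5, GH3.6, DAO1 and DAO2 of its group and the highest GH3.17. It also had the lowest TOR of the group, so every fit without it drops the library with the least TOR. GH3.3 gave -0.04 ± 0.382 and GH3.5 -0.36 ± 0.166 with all libraries, neither called. GH3.3 lay at 35.3 to 54.9 CPM without and 10.9 to 72.9 CPM with estradiol. The 10.9 CPM was replicate 2, and the change of GH3.3 without that library is not given. GH3.5 was called without replicate 1 of amiR-TOR on NPA with estradiol (-0.49, adjusted p = 0.0479).

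On IAA in amiR-TOR estradiol left 8 of the 9 tested members uncalled, against 18.9% of loci called. GH3.9 rose from 0.338, 0.241 and 0.203 CPM to 1.36, 0.864 and 0.981 CPM (log2 1.98 ± 0.514 SE, adjusted p = 0.00918), from 7, 2 and 4 counts to 34, 24 and 32. Its call was lost without replicate 3 of amiR-TOR on IAA (log2 1.79, adjusted p = 0.0646). The log2 changes of the 5 auxin-responsive GH3 genes lay between -0.21 ± 0.138 (GH3.6) and 0.10 ± 0.317 (GH3.2).

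**Figure D5:**
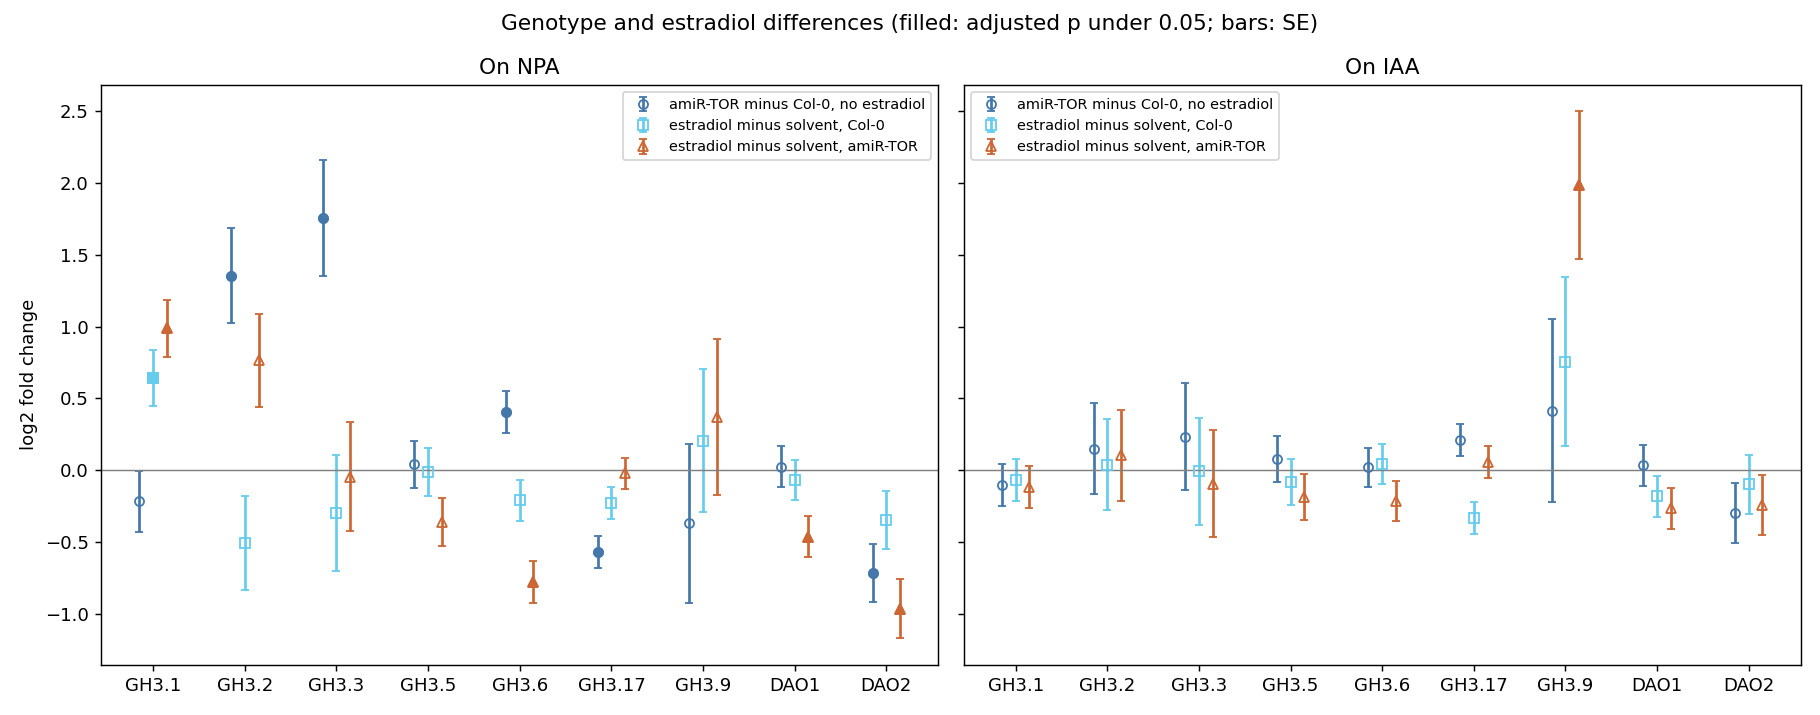
Log2 fold changes (y axis) with SE (bars) of the 9 tested genes (x axis) on NPA (left) and IAA (right): amiR-TOR minus Col-0 without estradiol, and estradiol minus solvent in each genotype; filled where the adjusted p is under 0.05. On NPA GH3.2 and GH3.3 stand at 1.35 and 1.76 between the genotypes, and on IAA the 1 filled point is GH3.9 with estradiol in amiR-TOR (1.98).

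A change of the IAA response by estradiol was tested through interaction terms. In amiR-TOR GH3.1 was the 1 member called, against 9.57% of loci, with a response smaller by log2 1.10 in the presence of estradiol (-1.10 ± 0.246 SE, adjusted p = 0.00532). Its IAA levels in amiR-TOR were 418 to 444 CPM without and 373 to 408 CPM with estradiol, and its NPA levels 1.60 to 2.31 and 3.45 to 4.32 CPM. In Col-0 no member was called by edgeR, 1 had an unadjusted p under 0.05 and 11.2% of loci were called. That member was GH3.1 as well (-0.71 ± 0.241, adjusted p = 0.0588), called by the DESeq2 Wald test (-0.70, adjusted p = 0.0370) and without replicate 1 of Col-0 on IAA (-0.84) or replicate 1 of its estradiol counterpart (-0.82). The interaction of genotype, auxin and estradiol for GH3.1 was -0.39 ± 0.345 (adjusted p = 0.727), so a difference between the genotypes was not shown.

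Without replicate 2 of amiR-TOR on NPA with estradiol GH3.2 also passed in the amiR-TOR interaction (-1.08, adjusted p = 0.0108, against -0.66 with all libraries). With the covariate for libraries of high unmapped share GH3.6 was called there too (0.63, adjusted p = 0.0328), as it was without replicate 1 of amiR-TOR on NPA with estradiol (0.70), and DAO2 without replicate 3 of that group (0.99).

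The test of whether estradiol acted differently in the 2 genotypes called 0 members on NPA, against 2.62% of loci, with 3 at an unadjusted p under 0.05 by edgeR: GH3.2 (1.27 ± 0.459 SE, adjusted p = 0.153), GH3.6 (-0.57 ± 0.204, 0.144) and DAO2 (-0.62 ± 0.287, 0.282). The DESeq2 Wald test called GH3.2 there (1.29, adjusted p = 0.0462), as did the fit without replicate 2 of amiR-TOR on NPA with estradiol (1.68, adjusted p = 0.000884). On IAA it called 0 members by edgeR, against 9.17% of loci, with 1 at an unadjusted p under 0.05, GH3.17 (0.39 ± 0.155, adjusted p = 0.115), called without replicate 1 of Col-0 on IAA plus estradiol (0.51). The interaction of all 3 factors called 0 members by edgeR, against 0.719% of loci, and 0 had an unadjusted p under 0.05. GH3.2 was called there without replicate 2 of amiR-TOR on NPA with estradiol (-1.62, adjusted p = 0.0245, against -1.20 ± 0.641).

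Likeness over the 24 libraries followed the split into NPA and IAA libraries and is a description only, since all loci share these libraries and their depth. By Pearson r of log2(CPM + 1), the locus closest to GH3.2 was GH3.3 (0.992), followed by CDEF1 (0.984), among 19415 loci of at least 1 CPM. The closest to GH3.5 was GH3.6 (0.997), and the next for both was LBD29 (0.997 and 0.996). For GH3.1 the closest was AT2G12462 (0.996) and for DAO2 AT3G27884 (0.984). The members with small changes had looser neighbours, MSRB6 for DAO1 (0.897), AT2G09615 for GH3.9 (0.827) and PBL1 for GH3.17 (0.764). Loci with r above 0.95 numbered 608 for GH3.1, 407 for GH3.5, 153 for GH3.2 and 0 for GH3.9, GH3.17 and DAO1.

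The other GH3 loci, several of which act on other acids than IAA, showed no common direction on IAA. Without estradiol in Col-0 6 of the 8 tested, of 11 listed, passed the test, 3 up and 3 down, where 63.3% of all tested loci were called. The median log2 change was -0.21 over the 8 against -0.04 over all loci. GH3.14 rose from 16.9 ± 1.30 to 51.2 ± 3.46 CPM (SD, n = 3; log2 1.59), and GH3.8 fell from 3.84 to 0.966 CPM (log2 -1.83). GH3.7 had 3.76, 3.06 and 1.70 CPM on NPA and 0, 0 and 0.740 CPM on IAA, and GH3.12, which acts on benzoates, had 0, 6 and 0 counts on NPA and 12, 14 and 19 on IAA. Both were called, at sizes that counts this low do not fix well, and GH3.12 lost its call without replicate 1 or 3 of Col-0 on NPA (adjusted p = 0.0702 and 0.0605). JAR1, which makes the active jasmonate conjugate, was at 163 CPM on NPA and 165 CPM on IAA in Col-0 and was not called. With estradiol 6 of 8 were called in Col-0, and 4 of 8 were called in amiR-TOR with and without it. Over all tested loci 59.3% were called in Col-0 with estradiol, 39.2% in amiR-TOR with it and 52.8% without it.

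Genes of the parallel routes also went both ways. Of 7 genes for glucosylation or methylation of auxins 5 were tested. In Col-0 without estradiol 4 of these passed, 2 up and 2 down (median log2 0.18 over the 5), against 63.3% of all tested loci. The glucosyltransferase genes UGT76E5 (log2 2.64 ± 0.175 SE) and UGT74E2 (0.82 ± 0.130), whose enzyme acts on indole-3-butyric acid, rose. UGT74D1 fell from 80.5 ± 6.51 to 35.8 ± 5.77 CPM (SD, n = 3; log2 -1.18), and UGT75D1 from 59.2 to 29.1 CPM (log2 -1.03). With estradiol Col-0 had 4 of 5 called, 1 up and 3 down, against 59.3% of all tested loci. In amiR-TOR it was 5 (2 higher, 3 lower) without estradiol, against 52.8%, and 4 (2 and 2) with it, against 39.2%.

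Of 10 genes listed as hydrolases that free IAA from conjugates, 8 were tested. In Col-0 without estradiol 5 passed, 1 up and 4 down (median log2 -0.41), against 63.3% of all tested loci. MES17, whose enzyme cleaves methyl-IAA, had 0.275, 0.410 and 0.385 CPM on NPA and 312, 244 and 278 CPM on IAA (log2 9.58 ± 0.281 SE). The amidohydrolase genes ILL6 (log2 -1.11), ILR1 (-0.66), ILL1 (-0.58) and IAR3 (-0.27) fell. Which conjugates their enzymes cleave was not examined, so these falls are not a measure of the release of IAA. With estradiol Col-0 had 5 called (2 up, 3 down), against 59.3% of all tested loci. In amiR-TOR it was 6 (2 and 4) without estradiol, against 52.8%, and 4 (3 and 1) with it, against 39.2%.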

How the data were processed

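RNA sequencing reads from 24 root libraries were deposited by the authors as tables of raw counts per locus, which per the submitters' processing notes came from STAR 2.5.2b and build TAIR10; DESeq2 is also named there. Each table lists 32833 loci under 4 summary lines, with counts without regard to strand and for each strand. The sense strand was used; it held 95.4% to 96.3% of stranded counts. Reads in the summary lines (unmapped, multimapping, unassigned, ambiguous) made up 6.22% to 50.6% of a library and were left out.

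Groups came from the labels' genotype and treatment. Counts were filtered with filterByExpr (21290 loci kept), scaled by TMM and fitted in 1 quasi-likelihood model with edgeR 4.0.16 (R 4.3.3), with 16 comparisons, 10 between 2 groups and 6 interactions, each adjusted by the Benjamini-Hochberg method over all tested loci; the adjustment was not made across comparisons. SE is the size of the log2 change divided by the square root of F. CPM used TMM-scaled library sizes and exon lengths from RefSeq TAIR10.1, from which genes and upstream windows were taken by locus. The files carry no coordinates. The deposited loci matched that annotation in 32547 cases. The printed chromosome positions are those of TAIR10.1, not of the notes' TAIR10.

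The alternatives were RLE size factors, the DESeq2 1.42.0 Wald test, no filter, unstranded counts, only the groups compared, a replicate block, a covariate for libraries with over 20% unmapped reads, and leaving out each library. The labels do not tie equal replicate numbers together. Deviations of same-numbered libraries correlated by over 0.1 in 7 of 30 pairs (highest 0.336), but in 0 comparisons in all pairs, so the block is an alternative. Members and gene lists were chosen with earlier results of these data known. Named genes are all 10 members and, from 3 lists, the called loci with the largest changes in Col-0 without estradiol. JAR1, IAR3 and IAMT1 were named in addition, after their values were seen. Counting precision is set by 8589833 to 40494513 gene counts per library.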

Additional observations from a re-analysis of the deposited data

Results flagged for a closer look

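In 10 cases an effect differed between conditions by the test of the interaction itself (edgeR's quasi-likelihood test with Benjamini-Hochberg adjustment over all tested loci). The 6 interactions were each tested on 9 members, 8 other GH3 loci, 5 glucosylation or methylation genes and 8 hydrolase genes. Over all tested loci 11.2% and 9.57% were called for auxin with estradiol in Col-0 and amiR-TOR, and 2.62% and 9.17% for genotype with estradiol on NPA and IAA. The share was 2.98% for genotype with auxin and 0.719% for all 3 factors. The 10 cases are not shown to exceed these shares. Among the members the cases were GH3.1 and GH3.17. The response of GH3.1 to IAA in amiR-TOR was smaller with estradiol (-1.10 on the log2 scale, adjusted p = 0.00532). Its means there without and with estradiol were 2.00 and 4.00 CPM on NPA, and 429 and 395 CPM on IAA. In Col-0 this interaction of GH3.1 was not called, at -0.84 to -0.53 over fits that each left out 1 library, 2 of them called. The interaction of all 3 factors called 0 members, so a difference between the genotypes was not shown for GH3.1. The response of GH3.17 to IAA without estradiol was more positive in amiR-TOR than in Col-0 (0.78, adjusted p = 0.0118).

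GH3.14 responded less to IAA with estradiol in Col-0 (-0.46, adjusted p = 0.0356) and in amiR-TOR (-0.58, adjusted p = 0.00969). The former lost its call in 7 of 12 fits that omitted a library each and with only the groups compared.

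UGT74E2 was flagged in 3 tests. In Col-0 it had 39.8 ± 1.02 CPM on NPA and 70.3 ± 1.79 CPM on IAA without estradiol, and 52.7 ± 4.89 and 33.4 ± 8.92 CPM with it (SD, n = 3), so its response turned from a rise to a fall (-1.48, adjusted p = 0.000122). In amiR-TOR it had 56.3 ± 2.83 and 85.0 ± 2.30 CPM without and 55.1 ± 8.51 and 78.7 ± 1.31 CPM with estradiol. The estradiol effect on IAA differed between the genotypes by 0.96 (adjusted p = 0.00244), and the interaction of all 3 factors was 1.40 (adjusted p = 0.00844).

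On IAA the estradiol effect also differed between the genotypes for UGT74D1 (0.83, adjusted p = 0.00444), ILR1 (0.80, adjusted p = 0.00219) and IAMT1 (1.53, adjusted p = 0.0263). UGT74D1 went from 35.8 to 24.5 CPM in Col-0 and from 34.5 to 42.3 CPM in amiR-TOR, and ILR1 from 12.3 to 11.1 and from 12.7 to 20.1 CPM. IAMT1, an IAA methyltransferase gene, had 4.05 and 2.01 CPM in Col-0 and 1.71 and 2.47 CPM in amiR-TOR, without and with estradiol. Its call was lost without replicate 2 of Col-0 on IAA with estradiol (adjusted p = 0.0687) or replicate 3 of amiR-TOR on IAA (0.0728). In Col-0 on IAA with estradiol 2 of 3 libraries are of high unmapped share; the covariate for these libraries left each of these 10 interactions called.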

How the results depend on the processing

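Across alternatives other than leaving out a library, 669 of 680 called values stayed called in the same direction, 11 lost the call, 7 uncalled values gained one and none reversed. With 1 library left out, 623 of 660 called values stayed called and 37 lost the call. Of 228 uncalled values there 11 gained a call and 4 reversed. These totals include the many-fold IAA changes and list loci picked for large called changes, which favours stable calls. The number of members called was 1, not 0, with the DESeq2 Wald test for the interaction of auxin with estradiol in Col-0 (GH3.1) and of genotype with estradiol on NPA (GH3.2), 2 instead of 1 with the covariate for high unmapped share for auxin with estradiol in amiR-TOR, and 3 instead of 1 with only the groups compared for genotype with auxin. Leaving out 1 library at a time, the members called ranged from 0 to 1 for estradiol in Col-0 on NPA and on IAA, for estradiol in amiR-TOR on IAA, for auxin with estradiol in Col-0, for genotype with estradiol on NPA and on IAA and for all 3 factors, from 1 to 2 for auxin with estradiol in amiR-TOR, from 3 to 5 for the genotypes on NPA (5 with all libraries) and for estradiol in amiR-TOR on NPA (4), and, for IAA against NPA without estradiol, from 6 to 7 in Col-0 (8 with all libraries, reached in none of these fits) and from 7 to 8 in amiR-TOR. Uncalled values changed sign in these fits for GH3.9 in Col-0 with estradiol (-0.62 to 0.027) and in amiR-TOR without it (-0.33 to 0.39), and for DAO1 in amiR-TOR with estradiol (-0.31 to 0.0068), all for IAA against NPA. Of all tested loci, the number called was 218 for estradiol in Col-0 on IAA, against 68 with only the groups compared, 574 with DESeq2 and 58 to 746 with a library left out. It was 2387 for auxin with estradiol in Col-0 (1533 with only the groups compared), 558 for genotype with estradiol on NPA (1079 with DESeq2), 1952 on IAA (1206 with only the groups compared), 634 for genotype with auxin (1100 with the covariate, 1259 with DESeq2) and 153 for all 3 factors (373 with DESeq2). Leaving out 1 library, the calls over all loci ranged from 1208 to 3608 for auxin with estradiol in Col-0 and 1265 to 2119 in amiR-TOR, 294 to 634 for genotype with estradiol on NPA and 1135 to 1956 on IAA, 153 to 1400 for genotype with auxin, and 89 to 238 for all 3 factors. They ranged from 2043 to 5294 for estradiol in Col-0 on NPA (4616 with all libraries), 2370 to 3859 in amiR-TOR on IAA, and 2853 to 4709 on NPA (4714) and 1494 to 2577 on IAA (2688) for the genotypes. The cause of these shifts was not tested. Deviations of same-numbered libraries correlated between -0.399 and 0.336, over 0.1 in 7 of 30 pairs, and in 0 comparisons in all pairs; the replicate block ended the calls of GH3.17 in Col-0 (-0.25) and DAO1 in amiR-TOR (-0.33) for IAA against NPA and of GH3.6 (0.40) between the genotypes on NPA. Depth limits GH3.4 and GH3.9.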
